A study of Mus musculus with 24 samples.

Results

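Some of the inguinal fat libraries of the chow-fed mice carried the transcripts of a lymph node, and others carried almost none. The libraries were chosen by their level of Glycam1, the mucin-like glycoprotein that high endothelial venules secrete, measured as its count over the library total times 1000000 (CPM). The 6 libraries above 1 CPM are called node-rich here (WT-Tg 1, 2, 3 and 4, D316A-Tg 8 and 11), and the 6 at or below 1 CPM node-poor (WT-Tg 5 and 6, D316A-Tg 7, 9, 10 and 12), out of 24 libraries in the series. The 12 libraries from mice on HFD, a high-fat diet with 45% fat, were not used for that choice and were split in the same way for comparison, giving 5 node-rich and 7 node-poor libraries.

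All animals were C57BL/6J mice, and every group carried a transgene for the γ1 subunit of the kinase AMPK. WT-Tg mice carried the wild-type form and D316A-Tg mice the D316A form, a gain-of-function mutant. Chow-fed mice were 16 weeks old and HFD-fed mice 24 weeks old, and no group without a transgene was analysed here. The labels do not give the promoter that drives the transgene, and they leave unsaid whether each library is its own animal. The p-values therefore measure only the spread between these samples, which may be technical. The tissue was whole subcutaneous fat from the inguinal region. The protocol states that the lymph node had been taken out before freezing.

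The inguinal fat pad surrounds a lymph node. Lymphocytes enter a node through high endothelial venules, whose sulphated and fucosylated mucins hold passing lymphocytes, and B cells then gather in follicles around Cxcl13-producing stroma and follicular dendritic cells, while T cells stay in the zone around them where Ccr7 ligands are made. Macrophages line the sinuses that receive lymph, and lymphotoxin from lymphocytes maintains the stroma.

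Upstream sequences are shown for 4 genes that were high in the node-rich libraries, the venule genes Glycam1 and Madcam1 (an adhesion molecule that binds integrin α4β7), the stromal chemokine gene Cxcl13, and Ltb, the gene of membrane-anchored lymphotoxin β. They were taken from RefSeq on GRCm38.p6, read 5′ to 3′ on the gene's own strand, and end where the GENCODE M21 gene begins or, at the latest, at the RefSeq start. Capitals mark matches, on either strand, to the NF-κB consensus motif or to CCCNNGGG, the core bound by the B lineage factor EBF.
Glycam1, chr15:103565082-103565331, minus strand: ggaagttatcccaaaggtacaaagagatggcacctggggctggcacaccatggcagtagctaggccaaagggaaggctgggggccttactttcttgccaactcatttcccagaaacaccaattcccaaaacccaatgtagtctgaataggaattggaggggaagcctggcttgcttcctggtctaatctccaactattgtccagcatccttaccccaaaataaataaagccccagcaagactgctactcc
Madcam1, chr10:79664309-79664558, plus strand: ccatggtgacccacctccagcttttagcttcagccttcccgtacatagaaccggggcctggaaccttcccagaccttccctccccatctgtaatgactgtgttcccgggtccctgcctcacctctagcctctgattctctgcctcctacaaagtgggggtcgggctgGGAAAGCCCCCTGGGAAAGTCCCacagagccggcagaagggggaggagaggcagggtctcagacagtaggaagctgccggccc
Cxcl13, chr5:95956689-95956938, plus strand: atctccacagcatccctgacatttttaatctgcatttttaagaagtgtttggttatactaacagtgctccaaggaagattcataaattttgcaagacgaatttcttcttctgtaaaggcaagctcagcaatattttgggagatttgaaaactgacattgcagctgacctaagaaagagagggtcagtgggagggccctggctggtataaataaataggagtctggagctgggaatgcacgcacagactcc
Ltb, chr17:35194257-35194438, plus strand: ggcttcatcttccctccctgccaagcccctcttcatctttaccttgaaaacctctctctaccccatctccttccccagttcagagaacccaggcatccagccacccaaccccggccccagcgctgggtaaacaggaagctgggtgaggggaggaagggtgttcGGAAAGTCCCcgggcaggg

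The NF-κB motif was found in Madcam1, where the first of 2 matches begins 83 bases upstream of the RefSeq start, and in Ltb, 87 bases upstream. Both genes hold the same 10 letters GGAAAGTCCC on the strand shown, and in Madcam1 these overlap a match to CCCNNGGG. Of 32851 promoter windows of 250 bases in the table, 1643 (5.0%) held the NF-κB motif and 3882 (11.8%) held CCCNNGGG. The letters of neither motif occurred in the Glycam1 and Cxcl13 windows. A match describes the letters only. Of the 355 listed genes, 268 had a promoter window.

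Glycam1 lies on chromosome 15 at 103562759 to 103565081 (minus strand, GRCm38). It was at 39.4, 65.6 and 82.2 CPM (lowest, median and highest) in the 6 node-rich libraries and at 0, 0 and 0.0678 CPM in the 6 node-poor ones. The groups did not overlap because the split was made on this gene. The library just above the threshold, D316A-Tg 11, held 39.4 CPM, and the one just below it, D316A-Tg 7, held 0.0678 CPM, so no library lay near 1 CPM. Node-poor libraries had 0 or 1 Glycam1 count, and node-rich libraries between 574 and 1266.

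The other 4 marker genes followed the same division. Chst4, a sulfotransferase that modifies the mucins of these venules (chromosome 8, 110029153 to 110039740, minus strand), was at 3.57, 4.92 and 6.07 CPM in node-rich and 0, 0 and 0.113 CPM in node-poor libraries. Cr2, complement receptor 2 of B cells and follicular dendritic cells (chromosome 1, 195136811 to 195176716, minus strand), was at 66.3, 126 and 186 CPM against 0, 0.156 and 0.283 CPM. Cd79a, a signalling chain of the B cell receptor (chromosome 7, 24897381 to 24902197, plus strand), was at 97.6, 274 and 350 CPM against 0.127, 0.25 and 0.848 CPM. None of these 3 genes overlapped between the groups. Among all 16617 genes tested below, the groups did not overlap with node-rich higher for 5693 (34.3%) and with node-rich lower for 906 (5.45%), so a lack of overlap was common. Cxcl13, the B cell chemoattractant (chromosome 5, 95956951 to 95961068, plus strand), was at 57.4, 123 and 187 CPM against 0.486, 1.72 and 6.79 CPM. The groups did not overlap here either, but Cxcl13 was above 1 CPM in all node-poor libraries but D316A-Tg 12.

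**Figure D1:**
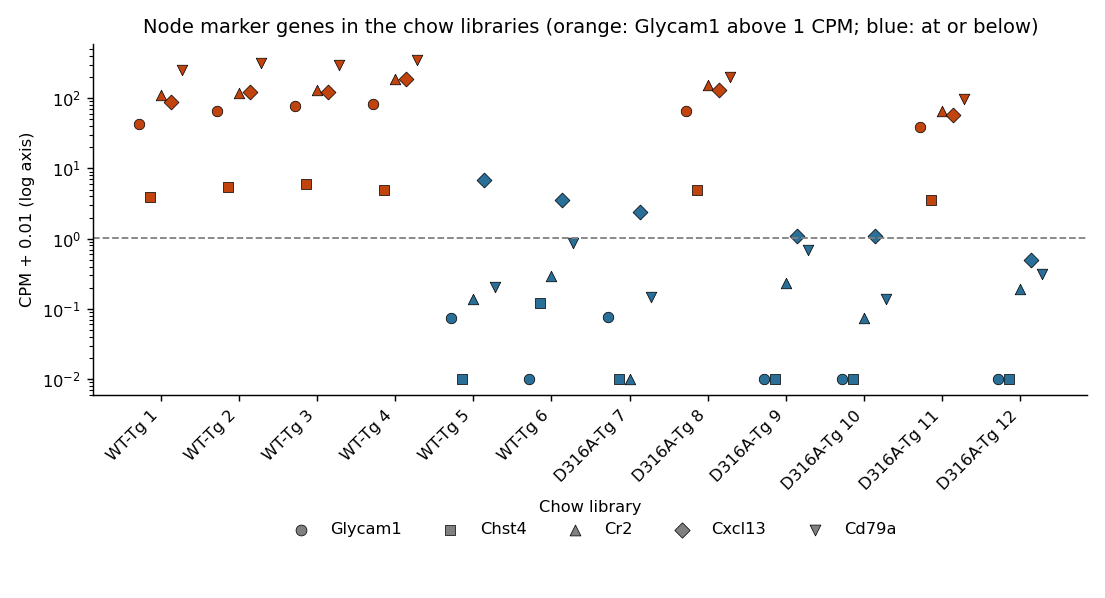
Level of the 5 marker genes in each of the 12 chow libraries, as CPM plus 0.01 on a log axis, with the 1 CPM threshold for Glycam1 dashed. Orange points (node-rich libraries) and blue points (node-poor libraries) do not overlap for any marker, and Glycam1 is at most 0.0678 CPM in every blue library.

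The chow libraries held 13254536 to 16313702 counts when node-rich and 14756322 to 17766546 when node-poor. At these depths 1 count is under 0.1 CPM, and intervals from counts would cover counting error only. Genes at 1 CPM or more numbered 14486 to 15084 in node-rich and 13189 to 14275 in node-poor libraries, and these ranges did not overlap. Transcripts of other tissues stood out in a few chow libraries. Seminal vesicle genes were high in WT-Tg 6, where the secretory protein gene Svs5 reached 1146 CPM and no other library exceeded 2.78 CPM. Liver genes were high in WT-Tg 5 and to a lesser extent in D316A-Tg 7, with Hpx (haemopexin) at 97.1 and 29.2 CPM and at most 3.76 CPM elsewhere. Skin genes were high in D316A-Tg 8, with Cst6 at 317 CPM against at most 0.961 CPM elsewhere. Skeletal muscle genes summed to 12935 CPM in WT-Tg 6 and 3874 CPM in WT-Tg 4. The part of seminal vesicle, liver and skin in the results was not tested on its own. Medians from a fit without WT-Tg 5, WT-Tg 6 and D316A-Tg 8 are given beside those they change. In that fit all WT-Tg libraries are node-rich. With genotype as covariate, its node contrast then sets D316A-Tg 11 alone against D316A-Tg 7, 9, 10 and 12, so its values rest on D316A-Tg 11. With a skeletal muscle score of each library as a further term, the node contrast described below called 11027 genes, of which 10776 were also called without that term, with 1885 at least 4-fold higher and 145 at least 4-fold lower.

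In a fit of all 12 chow libraries with genotype as covariate (edgeR quasi-likelihood), 11222 of 16617 genes tested (67.5%) had a Benjamini-Hochberg adjusted p below 0.05 for node-rich against node-poor. Of these, 5742 (34.6%) were higher and 5480 (33.0%) lower. The split was made on a level measured in these same libraries, so these counts describe the contrast and test nothing. A gene almost absent from all node-poor libraries passed the filter on low counts only through the node-rich ones. Such a gene could only be called higher, and the list counts and medians below include such genes. The sizes were unequal. Genes at least 4-fold higher numbered 1826 (11.0%) and genes at least 4-fold lower 169 (1.02%). No count is given without WT-Tg 5, WT-Tg 6 and D316A-Tg 8 together, since that contrast rests on D316A-Tg 11 alone. The 4-fold lower count moved from 169 to 90 without WT-Tg 5, 97 without D316A-Tg 7, 298 without WT-Tg 6 and 430 without D316A-Tg 8. Leaving out single libraries kept the 4-fold higher count between 1766 and 2069. In bulk tissue, fewer cells of a type and less RNA per cell cannot be told apart, and this holds for every level below.

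In CPM, the summed gains of all genes that were higher on average in node-rich libraries amounted to 236252, or 23.6% of the library. That sum has no genotype term and takes in every gain, including those from other tissues. It would be above 0 for any split, so it is not the share of node RNA. A set of 78 genes was at or below 0.5 CPM in every node-poor library and at or above 5 CPM in every node-rich one, and 0 genes showed the opposite pattern. These 78 genes included 63 protein-coding genes and 8 T cell receptor variable segments, and 14 were on a gene list used here. Together they made up 1395 to 2514 CPM in node-rich and 6.71 to 15.8 CPM in node-poor libraries.

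**Figure D2:**
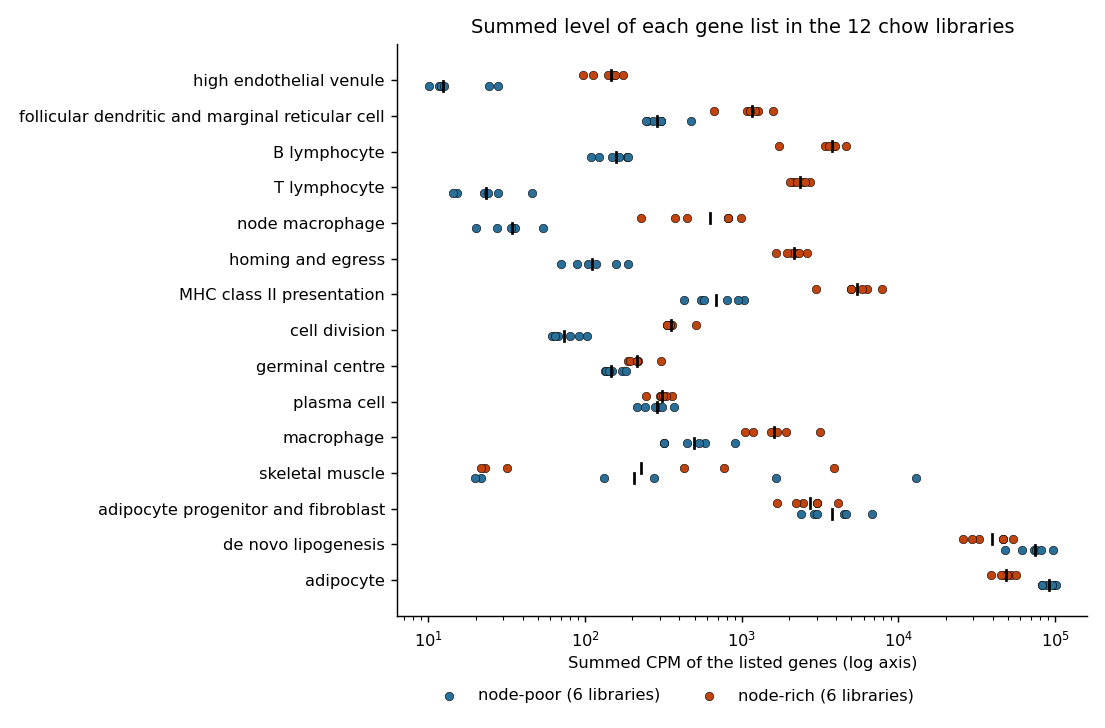
Summed CPM of 15 gene lists in the 12 chow libraries on a log axis, with each point a library and each bar the median of 6. T lymphocyte genes sum to 14.4 to 45.6 CPM in node-poor and 2042 to 2734 CPM in node-rich libraries, while adipocyte genes sum to 82197 to 101339 and 38777 to 55844.5 CPM.

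Over all genes tested, 34.6% were called higher and 33.0% lower, the shares to set beside each list count below. Genes of high endothelial venules were higher in node-rich libraries for 6 of 8 tested members, and 0 were lower, with a median log2 fold change of 2.94. The list includes Glycam1. Fut7, a fucosyltransferase that modifies the same mucins, was at 3.98, 7.75 and 8.17 CPM in node-rich and 0, 0.154 and 0.522 CPM in node-poor libraries. Gcnt1, which branches their O-glycans, was at 25.5, 29.0 and 35.7 CPM against 1.012, 2.5 and 3.85 CPM. Chst2, a second sulfotransferase of the pathway, was at 10.2, 15.1 and 21.1 CPM against 1.49, 2.23 and 4.37 CPM. All 3 enzymes were separated between the groups, with log2 fold changes of 4.49 (SE 0.43), 3.21 (SE 0.21) and 2.13 (SE 0.17).

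Follicular dendritic and marginal reticular cell genes were higher for 9 of 10 members, with a median log2 fold change of 4.46. Fcer2a, the low-affinity IgE receptor CD23 of follicular B cells and follicular dendritic cells, was at 71.4, 249 and 332 CPM in node-rich and 0.0678, 0.218 and 0.653 CPM in node-poor libraries. Mfge8, which bridges dying cells to phagocytes, was at 278, 425 and 525 CPM against 146, 180 and 325 CPM. Mfge8 overlapped between the groups, at a log2 fold change of 0.63 (SE 0.14). Ltbr, the lymphotoxin β receptor, was the member that was lower, at 40.7 to 63.4 CPM against 63.0 to 89.0 CPM (log2 fold change -0.85, SE 0.11).

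Fibroblastic reticular cells support the T cell zone. Their list gave 3 higher and 1 lower of 6 tested members, not far from the 34.6% of all genes called higher. Il33, an alarmin stored in stromal nuclei, was at 12.3, 19.3 and 28.3 CPM against 1.18, 1.58 and 4.5 CPM. Il7, the survival cytokine of naive T cells, was at 6.00, 8.18 and 10.0 CPM against 2.02, 3.44 and 4.11 CPM. Both were separated between the groups. The Ccr7 ligand gene Ccl19 was listed at 0 in all 12 chow libraries, and Ccl21a was at most 0.0657 CPM, although their receptor gene Ccr7 was at 125 CPM or more in every node-rich library. On HFD, in a separately made table, Ccl21a was at 33.3 to 159 CPM in node-rich and 0 to 2.45 CPM in node-poor libraries, and Ccl19 at 0.938 to 8.31 and 0 to 0.337 CPM. Both genes have near-identical copies in the mouse genome, how the counting treated them is not given in the sources used here, and processed pseudogenes took 16702 to 31319 CPM of the chow libraries. The absence of Ccl19 and Ccl21a counts on chow is therefore uncertain as a level.

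Lymphatic endothelial genes were higher for 5 of 9 members and lower for 0, with a median log2 fold change of 1.26. Prox1, the transcription factor that specifies lymphatic endothelium, was at 2.83, 4.78 and 8.24 CPM against 0.0565, 0.197 and 1.63 CPM. Lyve1, a hyaluronan receptor of lymphatic vessels, was at 6.47, 26.6 and 39.5 CPM against 2.36, 5.12 and 11.8 CPM. Prox1 was separated and Lyve1 overlapped.

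B lymphocyte genes were higher for 23 of 24 members, and the groups of libraries did not overlap for the 23, where 34.3% of all genes tested did not overlap in that direction. The median log2 fold change was 7.28, and the summed level was 1732 to 4643 CPM in node-rich and 109 to 188 CPM in node-poor libraries. Cd22, an inhibitory lectin of B cells, was at 111, 315.8 and 438 CPM against 0.0607, 0.699 and 1.02 CPM. Cxcr5, the receptor for Cxcl13, was at 30.8, 68.7 and 101 CPM against 0.131, 0.218 and 0.45 CPM. The member that was lower was Ebf1, a B lineage factor that adipocyte-lineage cells also express, at 60.6 to 89.3 CPM in node-rich and 55.4 to 110 CPM in node-poor libraries. Ebf1 alone made up much of the node-poor sum of this list.

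All 7 heavy chain constant genes tested were higher in node-rich libraries, where 34.6% of all genes tested were, but the isotypes differed in size. For 4 of them the groups did not overlap, where 34.3% of all genes tested did not overlap in that direction. Another limit is that 1 had no count in any node-poor library. It passed the filter on low counts only through the node-rich libraries, so its call is a description. Ighm, the μ heavy chain, was at 512, 1106 and 1260 CPM in node-rich and 75.1, 174 and 377 CPM in node-poor libraries, which did not overlap but were far closer than other B cell genes. The log2 fold change of Ighm was 1.61 (SE 0.21). In the same libraries the κ light chain gene Igkc was at 186 to 482 CPM against 1.33 to 34.6 CPM, and the λ gene Iglc2 at 42.6 to 112 against 0.136 to 3.46 CPM. These 2 light chain genes were added after their values were seen. Ighm thus stood at 75.1 CPM or more where both light chain genes and Cd79a were low.

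Switched isotypes varied between node-rich libraries. Igha, the IgA heavy chain, was highest in WT-Tg 1 (84.9 CPM) and D316A-Tg 8 (50.2 CPM) and lay between 2.34 and 8.42 CPM in the other 4 node-rich libraries. Ighg2c was at 75.7 CPM in WT-Tg 3 and between 0.562 and 12.6 CPM in the others. Jchain, which links IgA and IgM multimers, was highest in WT-Tg 1 and WT-Tg 3, at 35.1 and 26.2 CPM. The γ constant genes are similar in sequence and could share reads. Of 204 immunoglobulin variable segments in the table, 163 to 189 had at least 1 count in a node-rich library and 7 to 55 in a node-poor one. Of 132 T cell receptor variable segments, 88 to 94 and 6 to 20 had a count.

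Germinal centre genes were less uniform, with 6 of 9 tested members higher and 1 lower, at a median log2 fold change of 1.497. Of the 9, 1 had no count in any node-poor library and passed the filter on low counts only through the node-rich ones. Gcsam, a germinal centre signalling protein gene, was at 3.65 to 8.34 CPM against 0.339 to 0.914 CPM. The plasma cell list did not separate the groups, with 4 higher and 2 lower of 10 and a median log2 fold change of -0.01, which was 0.32 with library totals as the only scaling. Mzb1, a plasma and B cell chaperone gene, was at 14.2 to 34.2 CPM against 0 to 0.452 CPM, with 57.2% of its exon length overlapping another gene. Xbp1, which drives the secretory programme of plasma cells and is widely expressed, was at 134 to 212 CPM against 155 to 266 CPM.

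T lymphocyte genes were higher for all 27 members, with a median log2 fold change of 6.20. Cd3e, of the T cell receptor complex, was at 55.8, 75.3 and 99.4 CPM in node-rich and 0.253, 0.544 and 1.24 CPM in node-poor libraries. Tcf7, a transcription factor of naive and memory T cells, was at 206, 242 and 327 CPM against 0.813, 1.22 and 3.22 CPM. Foxp3, the regulatory T cell factor, was at 17.3, 20.6 and 25.7 CPM against 0, 0.132 and 0.396 CPM, with 31.5% of its exon length shared with another gene. None of these T cell genes overlapped between the groups. Cd8a was at 145 to 214 CPM against 0.522 to 3.28 CPM. The natural killer and innate lymphoid list gave 7 higher and 1 lower of 12, where 34.6% of all genes tested were higher.

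Dendritic cell genes were higher for 12 of 14 members and lower for 1, Cst3, the cystatin C gene that many cell types express. Ccl22, a chemokine of mature dendritic cells, was at 64.0, 94.1 and 111 CPM in node-rich and 0.457, 0.589 and 1.24 CPM in node-poor libraries. Irf8, needed for conventional dendritic cells of the cross-presenting kind and expressed by B cells, was at 108, 162 and 246 CPM against 6.01, 8.98 and 14.2 CPM. Node macrophage genes were higher for 6 of 7 tested members. Marco, a scavenger receptor of medullary sinus macrophages, was at 65.5, 168 and 269 CPM against 0.303, 0.687 and 1.24 CPM. Siglec1, the sialic acid receptor of subcapsular macrophages, was at 32.1, 92.5 and 162 CPM against 11.5, 15.7 and 23.8 CPM. Neither overlapped. The general macrophage list moved less, with 3 higher and 2 lower of 14 and a median log2 fold change of 0.17, and that median was -0.16 without WT-Tg 4 and -0.55 without WT-Tg 5, WT-Tg 6 and D316A-Tg 8. Lyz2, the lysozyme of macrophages and neutrophils, was its largest member in CPM difference, at 663 to 1994 CPM against 99.4 to 301 CPM.

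Lymphotoxin and TNF family genes were higher for 11 of 14 members and lower for 2. Ltb, whose upstream sequence is shown above, was at 127, 199 and 224 CPM in node-rich and 0.407, 1.17 and 2.26 CPM in node-poor libraries. Nfkb2 and Relb, which carry the lymphotoxin signal to the nucleus, were at 71.9 to 171 and 75.1 to 135 CPM against 13.4 to 26.2 and 12.3 to 27.7 CPM. Ligand and pathway genes were thus higher while Ltbr, the receptor, was lower. Homing genes were higher for all 15 members. Ccr7 was at 125, 137 and 166 CPM against 0.253, 0.842 and 1.02 CPM. The lowest node-rich library was far above the highest node-poor one.

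Antigen presentation by MHC class II was higher for all 10 members, with a median log2 fold change of 2.46. The invariant chain gene Cd74 was at 926, 1873 and 2798 CPM in node-rich and 123, 211 and 344 CPM in node-poor libraries. H2-Aa was at 795, 1322 and 1816 CPM against 120, 197 and 261 CPM. The groups did not overlap, and D316A-Tg 11 was the lowest node-rich library. Cell division genes were higher for 19 of 20 members, with a median log2 fold change of 2.32. Mki67, a marker of dividing cells, was at 35.5, 43.0 and 63.1 CPM against 2.09, 4.68 and 8.33 CPM.

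**Figure D3:**
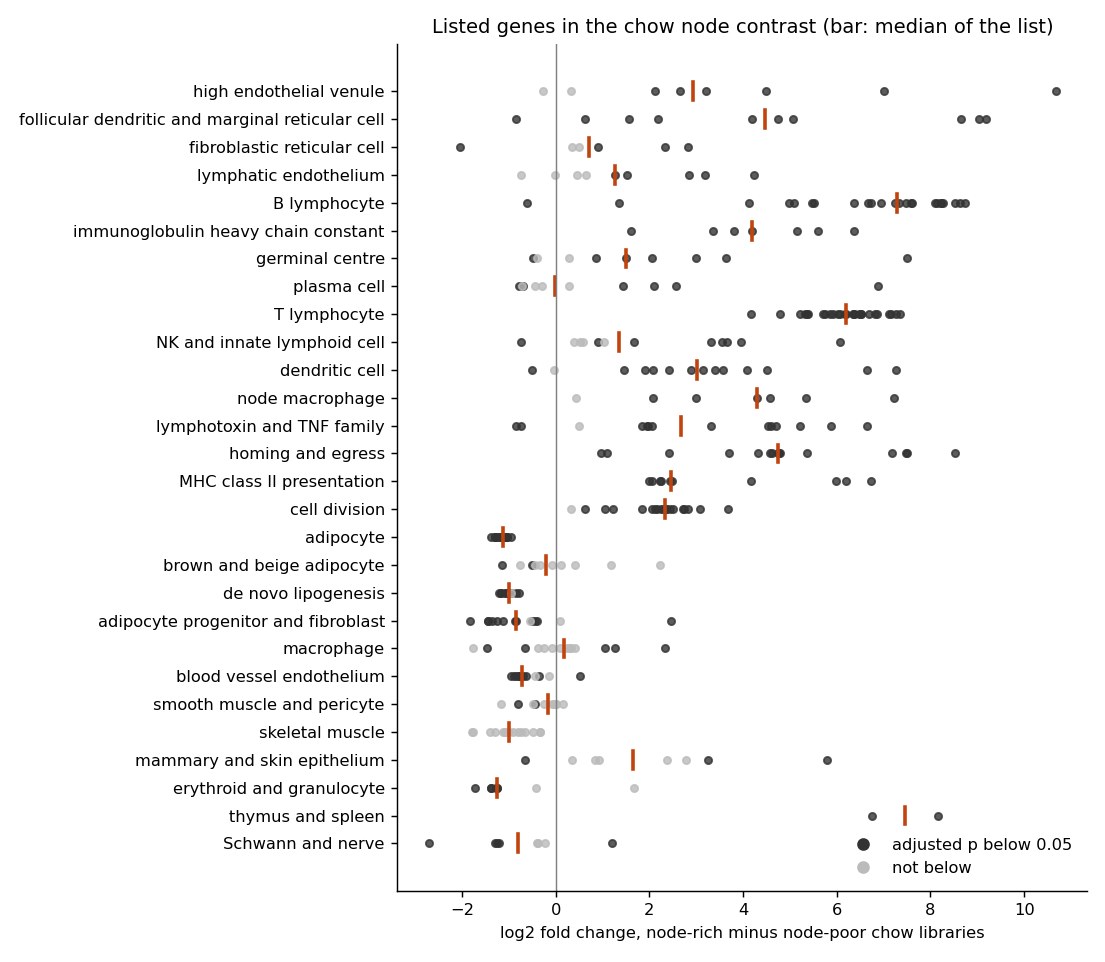
Log2 fold change of each listed gene between node-rich and node-poor chow libraries, with called genes dark, other genes grey and the list median as an orange bar. The 27 T lymphocyte genes lie between 4.18 and 7.34, and the 20 adipocyte genes between -1.39 and -0.94.

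Beyond the lists, the genes with the largest fold changes among protein-coding genes with at least 5 CPM were Glycam1, Dsc3, Grem1, Apol7c, Insm1, Tspan10, Dscaml1, Dapl1, H2-M2 and Cr2. Dsc3, a desmosomal cadherin gene, was at 24.8, 37.1 and 58.9 CPM in node-rich and 0, 0 and 0.0678 CPM in node-poor libraries. Grem1, a secreted BMP antagonist gene, was at 7.17, 11.6 and 15.9 CPM in node-rich libraries and at 0 in all 6 others. Insm1, a zinc finger factor known from neuroendocrine cells, was at 5.51, 5.63 and 9.66 CPM and also at 0 in all 6 others. No library of either group fell inside the other's range for these genes, which were picked by their fold change in these same libraries. Their separation is therefore a description. Grem1, Insm1, Tspan10 and Dscaml1 were at 0 in node-poor libraries, and the others of these genes averaged at most 0.147 CPM there. All of them passed the filter on low counts only through the node-rich libraries. Apol7c, an apolipoprotein L family gene, was at 59.4 to 167 CPM against 0 to 0.225 CPM.

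Of 9 genes listed for thymus and spleen, Aire and Dntt passed the filter on low counts, which they did only through the node-rich libraries, so their levels are given as a description. Aire, the regulator of self-antigen expression that is also known from rare extrathymic cells of lymph nodes, was at 1.95, 4.68 and 5.39 CPM in node-rich and at most 0.0633 CPM in node-poor libraries. Dntt, the terminal transferase of lymphocyte precursors, was at 1.54 to 3.62 CPM in node-rich libraries and at 0 in the others. The recombinase gene Rag1 was at most 0.0754 CPM, and so was the spleen patterning gene Tlx1. Neither was above 0 in a node-poor library.

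By CPM rather than by fold, the genes that gained most were Tmsb4x, Cd74, Actb, Eef1a1, H2-Aa, Lyz2, Arhgap45, Ddx5, H2-Eb1 and Coro1a. Tmsb4x, which binds actin monomers, was at 2280, 2569 and 3288 CPM in node-rich and 463, 578 and 851 CPM in node-poor libraries. Coro1a, an actin regulator of leukocytes, was at 531, 782 and 891 CPM against 15.1, 16.6 and 27.3 CPM. Arhgap45, a GTPase-activating protein gene of blood cells, was at 610, 884 and 1027 CPM against 14.3, 16.1 and 33.6 CPM. Housekeeping genes shifted as well. The 80 cytosolic ribosomal protein genes summed to 13025 to 18615 CPM in node-rich and 6131 to 8340 CPM in node-poor libraries, without overlap. Transcripts of the mitochondrial genome summed to 37652 to 94324 against 54027 to 114797 CPM, with overlap.

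Adipocyte genes were lower in node-rich libraries for all 20 members, and they were lower by nearly the same factor. Their log2 fold changes lay between -1.39 and -0.94, with a median of -1.13, which was -0.82 with library totals as the only scaling. Their summed level was 38777 to 55844.5 CPM in node-rich and 82197 to 101339 CPM in node-poor libraries. Adipoq, the hormone adiponectin, was at 1624, 2015 and 2206 CPM in node-rich and 3780, 3802 and 4057 CPM in node-poor libraries. Cfd, adipsin, was at 6578, 8038 and 8386 CPM against 14390, 16641 and 20535 CPM. Both were separated between the groups, while the hormone leptin was not. Lep was at 114, 343 and 484 CPM against 164, 596 and 664 CPM.

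Lipid synthesis genes were lower for 11 of 12 members, with a median log2 fold change of -0.99. Scd1, which desaturates newly made fatty acids, was at 14551, 23245 and 33552 CPM in node-rich and 29262, 44941 and 51756 CPM in node-poor libraries. Fasn, fatty acid synthase, was at 5377, 8816 and 11479 CPM against 11174, 15554 and 25678 CPM. Both overlapped slightly. The brown and beige adipocyte list gave 2 lower and 0 higher of 10. Ucp1, the uncoupling protein of thermogenic fat, was at 3.34, 252 and 776 CPM against 12.1, 81.3 and 216 CPM and did not pass the threshold (log2 fold change 2.24, SE 0.97). The highest and the lowest Ucp1 level of the 12 libraries were both in node-rich libraries, D316A-Tg 11 and WT-Tg 4.

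Several lists of other cells in the fat held more lower than higher members, where 33.0% of all genes tested were called lower. Smooth muscle and pericyte genes stayed under that share, and nerve genes were not far above it. Adipocyte progenitor and fibroblast genes were lower for 11 of 14 members. Col3a1, a fibrillar collagen, was at 662, 1117 and 1533 CPM in node-rich and 1112, 1733 and 3033 CPM in node-poor libraries. The higher member was Dpp4, a progenitor marker that T cells also carry as CD26, at 56.4 to 81.4 against 3.99 to 21.8 CPM. Blood vessel endothelial genes were lower for 9 of 12 members, with a median log2 fold change of -0.72, and Pecam1, also expressed by leukocytes, was the 1 that was higher. Their sums in CPM overlapped, at 454, 763 and 899 CPM in node-rich and 377, 532 and 1158 CPM in node-poor libraries. The median sum, which lacks the scaling and genotype term of the fit, was thus higher in node-rich libraries. The highest endothelial sums were in the node-poor libraries WT-Tg 5 (1158 CPM) and WT-Tg 6 (1156 CPM). Smooth muscle and pericyte genes gave 2 lower and 0 higher of 10, with a median of -0.16 that was 0.16 with library totals as the only scaling. Haemoglobin and granulocyte genes were lower for 6 of 8 tested members, and Hbb-bs was at 64.1 to 118 CPM against 109 to 236 CPM, a value that near-identical globin copies make uncertain. Nerve genes gave 4 lower and 1 higher of 8, with a median log2 fold change of -0.80 that was -0.26 without WT-Tg 5 and 0.12 without WT-Tg 5, WT-Tg 6 and D316A-Tg 8. Their summed level was highest in WT-Tg 5, at 918 CPM against 68.6 to 235 CPM in the other 11 libraries.

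The genes with the largest fold decrease were Svs1, Svs4, Svs5, Pate4, Svs2, Saa1, Hpx, Ambp, Cps1 and Apob. These are the seminal vesicle and liver genes of WT-Tg 6 and WT-Tg 5 described above. Without WT-Tg 6 the log2 fold change of Svs1 went from -8.67 to 0.51 and that of Svs4 from -8.55 to 0.66. Skeletal muscle genes gave 0 calls among 15 tested, and their sums overlapped, from 21.6 to 3874 CPM in node-rich and 19.9 to 12935 CPM in node-poor libraries. Mammary and skin epithelial genes gave 2 higher and 1 lower of 8. Krt14, a basal keratin, was at 37.5 CPM in D316A-Tg 8 and at most 0.842 CPM in any other library. Epcam, a surface protein of epithelia, was at 3.55 to 22.6 CPM in node-rich and 0 to 2.73 CPM in node-poor libraries, and the skin library D316A-Tg 8 was again the highest.

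Node-rich libraries were not alike. The T lymphocyte sum varied little, from 2042 to 2734 CPM, and the B lymphocyte sum more, from 1732 to 4643 CPM. The ratio of T to B sums was 1.29 in D316A-Tg 11 and between 0.542 and 0.802 in the other 5. The libraries were selected on Glycam1, so the levels that follow are set beside it as a description, with no test. In ascending order of Glycam1 (D316A-Tg 11, WT-Tg 1, D316A-Tg 8, WT-Tg 2, WT-Tg 3 and WT-Tg 4), the B lymphocyte sum was 1732, 3411, 3588, 3894, 3933 and 4643 CPM, the same order. D316A-Tg 8 and WT-Tg 2 were nearly tied in Glycam1, at 65.55 and 65.64 CPM, so the order of this pair is uncertain. The follicular dendritic and marginal reticular cell sum, a list that includes Cr2 of B cells, was 669, 1079.7, 1126, 1264, 1212 and 1572 CPM, with WT-Tg 2 and 3 exchanged. The T lymphocyte sum was 2239.7, 2734, 2042, 2111, 2463 and 2544 CPM and did not follow that order.

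The plasma cell sum was lowest in D316A-Tg 11, at 245 CPM, and highest in WT-Tg 3, at 356 CPM. The lymphatic endothelium sum was lowest in D316A-Tg 11, at 36.1 CPM, and highest in WT-Tg 4, at 134 CPM. The adipocyte sum ran the other way at both ends, with 55844.5 CPM in D316A-Tg 11 and 38777 CPM in WT-Tg 4. The 4 libraries between them were not in that order, since WT-Tg 2 had more adipocyte transcripts than WT-Tg 1. The 2 lowest Glycam1 libraries, D316A-Tg 11 and WT-Tg 1, had the 2 highest T to B ratios. Only 2 of the 6 libraries were D316A-Tg, too few to set the genotypes apart here.

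**Figure D4:**
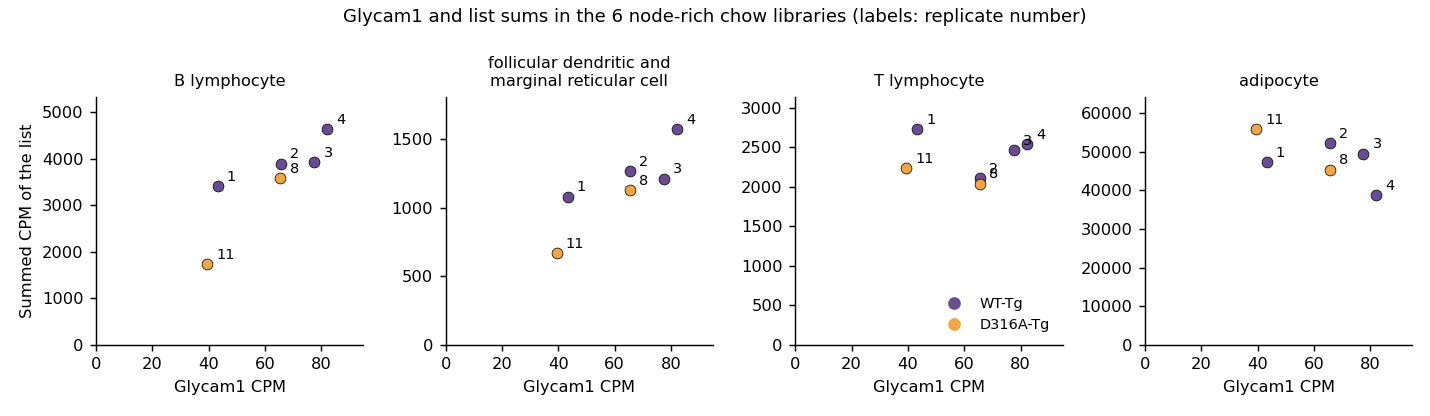
Summed CPM of 4 gene lists against Glycam1 CPM in the 6 node-rich chow libraries, purple for WT-Tg and yellow for D316A-Tg, labelled by replicate number. The B lymphocyte sum runs from 1732 CPM in D316A-Tg 11 to 4643 CPM in WT-Tg 4 in the order of Glycam1, while the T lymphocyte sum stays between 2042 and 2734 CPM. D316A-Tg 8 and WT-Tg 2 are nearly tied in Glycam1.

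The HFD libraries gave a look at the same genes in samples that had no part in the choice. They were split by their own Glycam1 level, so the test asks which other genes go with Glycam1 there, not what a treatment did. Glycam1 was at 1.82 to 11.1 CPM in the 5 node-rich HFD libraries (WT-Tg 3, D316A-Tg 7, 8, 9 and 11) and 0 to 0.289 CPM in the other 7. Only WT-Tg 3 of the node-rich HFD libraries was WT-Tg, so node content and genotype were nearly aligned there. Skeletal muscle genes summed to 24182 CPM in D316A-Tg 7 (node-rich) and 6304 CPM in D316A-Tg 10 (node-poor). The part of genotype and muscle in the HFD calls was not tested on its own. Of 16748 genes tested with edgeR's quasi-likelihood test, 3771 (22.5%) were called, 1923 higher (11.5%) and 1848 lower (11.0%). At least 4-fold higher were 717 (4.28%) and at least 4-fold lower 108 (0.645%). The total was 1494 without D316A-Tg 12, 2365 without D316A-Tg 10 and 0 with a threshold of 5 CPM, which left only D316A-Tg 8 and 11 as node-rich.

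Of the 1826 genes that were at least 4-fold higher on chow, 1592 were tested on HFD, and 935 of them (58.7%) were higher there and 13 lower. In the other direction, 659 of the 685 HFD genes at least 4-fold higher that were also tested on chow (96.2%) were at least 4-fold higher on chow. Of the 169 genes at least 4-fold lower on chow, 160 were tested on HFD and 5 were lower. Lymphocyte genes were higher in node-rich than in node-poor HFD libraries for 27 of 27 T cell and 21 of 24 B cell members. Cd3e was 0.359 to 1.20 CPM in node-poor and 9.73 to 45.1 CPM in node-rich HFD libraries (log2 fold change 4.82, SE 0.40, edgeR adjusted p = 4.5e-05). Cd79a was at 0.434 to 5.10 CPM in node-poor and 30.4 to 157 CPM in node-rich HFD libraries (5.47, SE 0.61, edgeR adjusted p = 0.00021). Cxcl13 was at 0.718 to 2.60 CPM in the node-poor and 17.9 to 99.5 CPM in the node-rich ones (4.80, SE 0.44, edgeR adjusted p = 6.1e-05). These 3 genes did not overlap between the HFD groups either. Homing genes were higher in node-rich HFD libraries for 13 of 15 members and MHC class II genes for 9 of 10.

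Some lists gave other counts in the HFD contrast. Here rose and fell mean higher and lower in node-rich than in node-poor HFD libraries. High endothelial venule genes, a list that includes Glycam1, rose for 3 of 9 and fell for 0. Follicular dendritic and marginal reticular cell genes rose for 6 of 10 and fell for 2. Their sums overlapped, at 390 to 960 CPM in node-rich and 706 to 1212 CPM in node-poor HFD libraries. Node macrophage genes rose for 4 of 8 and fell for 1, and fibroblastic reticular cell genes rose for 4 of 8 and fell for 0. No cell division gene was called of 20, where chow gave 19 higher, and Mki67 was at 10.6 to 34.8 CPM in node-rich and 14.006 to 33.7 CPM in node-poor HFD libraries (log2 fold change 0.08, SE 0.34, edgeR adjusted p = 0.88). Macrophage genes were lower in node-rich than in node-poor HFD libraries for 10 of 14 members and higher for 0. Adipocyte genes fell for 3 of 20, with a median log2 fold change of -0.13. Adipoq was at 2042 to 3202 CPM in node-rich and 1824 to 3811 CPM in node-poor HFD libraries (log2 fold change -0.43, SE 0.17, edgeR adjusted p = 0.080). The difference between the diets was not tested, since age, diet and the count table differ together. Glycam1 per 100 CPM of Cd79a was 16.97 to 40.4 in node-rich chow libraries and 2.11 to 7.46 in node-rich HFD libraries, from tables made separately.

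Node content was unevenly spread over the genotypes on chow, with 4 of 6 WT-Tg and 2 of 6 D316A-Tg libraries node-rich. With the node term in the fit, 4398 of 16617 genes (26.5%) differed between D316A-Tg and WT-Tg in the edgeR test, 2115 higher (12.7%) and 2283 lower (13.7%). Without the node term 1211 (7.29%) differed, of which 1209 were also called with it. The count with the term rests on few libraries. It was 2623 without WT-Tg 5 and 2879 without D316A-Tg 11. Without WT-Tg 5, WT-Tg 6 and D316A-Tg 8 all WT-Tg libraries are node-rich. The genotype term then rests on D316A-Tg 11 alone, so no count is given for that fit. The median genotype log2 fold change of B lymphocyte genes was -0.52 with the term and -1.53 without it, and that of T lymphocyte genes -0.26 and -1.14. With the term, 3 of 24 B lymphocyte genes and 4 of 10 MHC class II genes were lower in D316A-Tg, and 0 of 27 T lymphocyte genes were called.

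Fat genes differed by genotype as well with the node term. Lipid synthesis genes were higher in D316A-Tg for 9 of 12 (5 without the term) and brown and beige adipocyte genes for 5 of 10 (3 without it). Endothelial genes were lower for 10 of 12 (2 without it). Among genes with the largest genotype differences, Rab6b, a Golgi GTPase gene, was at 2.65 to 35.8 CPM in D316A-Tg libraries and at 1.28 to 2.57 CPM in WT-Tg ones (log2 fold change 3.73). Zfp871 and Cbl, an E3 ubiquitin ligase gene, had log2 fold changes of 2.95 and 2.36. Each was highest in D316A-Tg 8 and 11, the node-rich D316A-Tg libraries. Zfp990, a zinc finger gene, was lower in D316A-Tg (log2 fold change -5.93). Cst6 and Awat2 were also called higher and Svs1, Svs4, Svs5, Svs2 and Pate4 lower. Cst6 and Awat2 were high only in D316A-Tg 8, and the 5 seminal vesicle and related genes only in WT-Tg 6. Prkag1, the gene of the transgenic subunit, did not differ by node content on chow, at 311 to 664 CPM in node-rich and 280 to 444 CPM in node-poor libraries, with 43.7% of its exon length shared with another gene.

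The node contrast itself was compared between genotypes by an interaction term, and 3 genes (0.0181%) passed in edgeR, while 1586 had an unadjusted p below 0.05 and DESeq2 called 116. Prkcq, a kinase of T cell receptor signalling, averaged 87.3 CPM in the node-rich and 6.54 CPM in the node-poor libraries of WT-Tg mice, and 77.0 and 1.33 CPM in D316A-Tg (log2 difference 1.95, SE 0.25, edgeR adjusted p = 0.0325). Extl1, an exostosin-like glycosyltransferase gene, averaged 12.0 and 2.65 CPM in WT-Tg, and 15.8 and 0.198 CPM in D316A-Tg (3.94, SE 0.48, edgeR adjusted p = 0.0321). Actn2, an actinin of striated muscle, averaged 2.75 and 12.0 CPM in WT-Tg and 6.59 and 0.0292 CPM in D316A-Tg (9.37, SE 1.04, edgeR adjusted p = 0.0291). In all 3 the node-poor WT-Tg mean was above the node-poor D316A-Tg mean. The node-poor WT-Tg libraries are WT-Tg 5 and 6, whose skeletal muscle sums were 1647 and 12935 CPM. WT-Tg 5 had the higher Actn2 level of this pair (20.6 against 3.28 CPM) and the lower muscle sum. The part of muscle in these 3 calls was not tested.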

How the data were processed

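The authors deposited raw counts, chow and HFD in separate tables of 12 libraries, with 39017 and 38483 genes. Named in the submitters' processing notes are STAR 2.4.1, mm10, FastQC, DESeq2, and bcl2fastq 2.20.0.422 for chow or bclfastq 2.16.0.10 for HFD. Libraries were TruSeq stranded mRNA from RNA of integrity number 7 or more. Not given in the sources used here are the counting tool, its annotation and its strand setting. Gene positions (GRCm38, 1-based), biotypes and overlaps were read from GENCODE M21, which held 96.4% of the chow identifiers.

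CPM is the count over the column sum times 1000000. Genes were tested with edgeR 4.0.16 (R 4.3.3) by the quasi-likelihood F test with TMM scaling, filterByExpr and a robust step, with Benjamini-Hochberg adjustment over all genes tested and a threshold of 0.05. Chow and HFD were fitted separately, with genotype and node content as terms. DESeq2 1.42.0 and limma 3.58.1 were alternatives, along with other scalings, filters, thresholds and leaving out each library. After seeing the data, a fit without WT-Tg 5, WT-Tg 6 and D316A-Tg 8 was added. The fit was tested on simulated data. No pair of libraries within a chow group was a duplicate (chi-square over its degrees of freedom at least 14.4).

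The libraries, 28 gene lists (361 entries, of which Ccl21c and Ighd could not be matched on chow) and alternatives were chosen with earlier results of these data known. Named genes are the 5 markers and a set of node and fat genes, up to 4 per list by CPM difference, the 10 with the largest fold and the 10 with the largest CPM difference in each direction, and 6 per direction for genotype and interaction, with at least 5 CPM. Predicted genes, pseudogenes and receptor segments were counted only. Genes named outside this rule, such as the exceptions within a list, were chosen after their values were seen. The form of the NF-κB motif, the usual 10-letter consensus with ambiguous bases, was set after matches to narrower forms had been seen in the same promoters. A few listed genes are counted in their lists but not reported by name here.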

Additional observations from a re-analysis of the deposited data

Results flagged for a closer look

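Of 38 groups of 6 libraries looked at for a library far from the others, 5 had one, and chance flags about 1 in 20 groups. Among node-poor libraries, the follicular dendritic and marginal reticular cell sum was highest in WT-Tg 5 at 471 CPM, with the others between 244 and 306 CPM. The skeletal muscle sum was highest in WT-Tg 6 at 12935 CPM among node-poor and in WT-Tg 4 at 3874 CPM among node-rich libraries. The germinal centre sum was highest in WT-Tg 4 at 306 CPM, with the other node-rich libraries between 187 and 219 CPM. Among node-poor libraries, WT-Tg 6 alone had any Chst4 count, at 0.113 CPM, which is a matter of single counts.

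The node contrast differed between genotypes for 3 genes by the interaction term of edgeR, with log2 differences of 1.95 for Prkcq, 3.94 for Extl1 and 9.37 for Actn2. Without WT-Tg 2, WT-Tg 3, D316A-Tg 8 or D316A-Tg 10, no gene passed.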

How the results depend on the processing

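No paired analysis was possible because WT-Tg libraries are numbered 1 to 6 and D316A-Tg libraries 7 to 12 on each diet, so the groups share no replicate number. The chow node contrast called 11222 genes and, over the 12 fits that left out a library, 10725 to 11261. The other scalings, filters and tools stayed within 1.5 times, and thresholds of 0.5 and 5 CPM gave the same libraries. Without WT-Tg 5, WT-Tg 6 and D316A-Tg 8 it called 5601. The share of higher calls was 51.2%, 46.4% with upper-quartile scaling and 73.2% with library totals only, which also moved the median log2 fold change of all genes from -0.02 to 0.30. Genotype calls numbered 4398 with the node term, 1211 without it, 35 without the 3 libraries, and 2623 to 4841 with a library left out. HFD calls numbered 3771, 0 at a 5 CPM threshold (2943 at an unadjusted p below 0.05), and 1494 to 4246 with a library left out. Interaction calls numbered 3, 116 with DESeq2, and 0 to 29 with a library left out.

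List medians changed sign with library totals only for plasma cell (0.32) and smooth muscle and pericyte (0.16). With a library left out, the plasma cell median ran from -0.10 to 0.25 (without WT-Tg 3), that of macrophage from 0.30 to -0.16 (without WT-Tg 4) and that of mammary and skin epithelium from 2.46 to -0.12 (without D316A-Tg 8). Without WT-Tg 5, WT-Tg 6 and D316A-Tg 8, sign changed for macrophage (-0.55), mammary and skin epithelium (-0.97), Schwann and nerve (0.12), the node log2 fold changes of Awat2 (-0.63), Zfp990 (-3.86) and Krt14 (-1.07), and the genotype one of Awat2 (-0.29). With a library left out, the node log2 fold change ran from -11.01 to 0.51 for Svs1 and from -10.66 to 0.66 for Svs4, and the genotype one from -8.75 to 2.94 for Svs1, -9.33 to 2.12 for Svs4, -8.64 to 0.68 for Svs5, -8.06 to 0.42 for Pate4 and -6.77 to 0.050 for Svs2, each highest without WT-Tg 6. Cst6 ran from -0.50 to 8.55 (node) and -1.26 to 8.04 (genotype), lowest without D316A-Tg 8. The cause of the other changes was not tested. With 1 count under 0.1 CPM, levels below about that are single counts.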
